A study of Mus musculus with 18 samples.

Results

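Expression in CDCP1+ colon tumour cells labelled FatK5 was set against that in cells labelled FatK7, both untreated, on 3 bead arrays each, which are 6 of the 18 arrays of the study. The 6 arrays were chosen by the column names of the authors' non-normalized table, and 43 probes of 45281 were left out because at least 1 of their signals was printed in more than 7 significant digits, which left 45238. The study profiled tumour-inducing cells of 3 mice, FatK1, FatK5 and FatK7, untreated or with a short hairpin RNA against Foxd3 (shFoxd3), on 3 arrays for each of the 6 groups.

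The FatK5 cells came from the mouse labelled mice#5 and the FatK7 cells from mice#7. Per the labels both mice were of the same genotype (FatK), which includes Fapbl-Cre and Apc2lox14/+, on C57Bl/6 and 17 weeks old. A FatK mouse thus carries a Cre recombinase and 1 floxed Apc allele, among its modifications. The promoter behind the Cre and the cells in which it acts are not given beyond that name in the sources used here. Cells that carried CDCP1, a surface protein, were taken from the colon with magnetic beads, kept with doxycycline (Dox) and left untreated for 24 h. Each label names 1 mouse, and nothing says whether its 3 arrays came from separate cultures. The p-values below thus rest on differences among arrays that, within FatK7, may be of technical origin alone. The FatK5 arrays differed in sex-linked genes, as given below.

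The labelled tissue was checked against its markers. The intestinal epithelial genes Epcam, Cdx2, Cdx1, Vil1, Krt20 and Cdh17 were detected on none of the 6 arrays, where detected means a detection p-value below 0.05. Lgals4, a gut lectin, was the 1 of 7 intestinal markers detected on all 6. Cdcp1, the gene of the sorted surface protein, had signals of 10.5, 7.05 and 5.27 on the FatK5 arrays and 13.3, 2.57 and 16.9 on the FatK7 arrays, and was detected on 1 of the 6. Foxd3 was likewise detected on 1 FatK7 array alone. By contrast, 10 of 10 skeletal muscle markers were detected on every FatK5 array and 1 of 10, Actn3, on every FatK7 array. Of 10 liver markers, 9 were detected on every FatK7 array and 2, Cyp2e1 and Tat, on every FatK5 array. The data thus go against the label of colon epithelium, and FatK5 and FatK7 are used below as the names of the arrays only. In RNA from many cells, fewer cells of a type and less RNA per cell cannot be told apart.

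The 3 FatK5 arrays were not alike in genes of the sex chromosomes. Xist, the RNA of the inactive X chromosome, had 9.69, 860 and -2.07 on the FatK5 arrays, against 3.1, -0.329 and -4.94 on the FatK7 arrays. Eif2s3y, on the Y chromosome, had 687, 8.31 and 744 in FatK5 against 353, 349 and 368 in FatK7. Kdm5d, also Y-linked, had 67.4, -1.18 and 72.2 in FatK5 against 22, 15.2 and 19.8 in FatK7. The FatK5 shFoxd3 arrays, with Xist at 665, 1320 and 1258 and Eif2s3y at 6.46, 1.38 and -4.59, matched FatK5 array 2 in these genes and not arrays 1 and 3. Array 2 of the untreated FatK1 group stood apart in the same way, with Xist at 5.39, 1174 and 13.5 and Eif2s3y at 872, -4.95 and 794 on arrays 1, 2 and 3. Arrays labelled as 1 mouse, mice#5, thus differed in sex-linked genes, which goes against that label, and results are given without FatK5 array 2 at the end of the text.

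Skeletal muscle shortens when calcium, released through the ryanodine receptor, frees the actin filaments to slide over myosin, and it rebuilds ATP from creatine phosphate, glycogen and glucose that it burns for its own use. Hepatocytes make most plasma proteins, export lipids, bile acids and glucose, detoxify foreign compounds and turn ammonia into urea. Many enzymes that both tissues need exist as isozymes from separate genes, 1 of them with regulation suited to a contracting fibre and the other to an organ that supplies the body.

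The sequences before the transcription start are shown for 4 genes because these genes carry the contrast in both directions. Pgam2 is the muscle form of a switched enzyme pair. Myh4 encodes a fast myosin. Fga encodes a fibrinogen chain, and Cyp2a5 is a liver cytochrome P450. Each is the 250 bases before the start of the gene in RefSeq's annotation of GRCm38.p6, at chr11:5803797-5804046 (minus strand) for Pgam2, chr11:67237562-67237811 (plus strand) for Myh4, chr3:83025903-83026152 (plus strand) for Fga and chr7:26835089-26835338 (plus strand) for Cyp2a5. Capitals mark matches, on either strand, to CAGCTG (an E-box of the kind MyoD binds), the MEF2 site, the CArG box of serum response factor, TATAAA (the TATA box), GTTAAT (an HNF1 element), CAAAGTCCA (HNF4) and TTGCNNAA (C/EBP).
Pgam2: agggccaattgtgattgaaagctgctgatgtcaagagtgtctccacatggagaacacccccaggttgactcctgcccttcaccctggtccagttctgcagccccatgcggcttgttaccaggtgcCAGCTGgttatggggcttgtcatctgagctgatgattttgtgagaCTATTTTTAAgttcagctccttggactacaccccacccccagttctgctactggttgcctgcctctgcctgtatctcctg
Myh4: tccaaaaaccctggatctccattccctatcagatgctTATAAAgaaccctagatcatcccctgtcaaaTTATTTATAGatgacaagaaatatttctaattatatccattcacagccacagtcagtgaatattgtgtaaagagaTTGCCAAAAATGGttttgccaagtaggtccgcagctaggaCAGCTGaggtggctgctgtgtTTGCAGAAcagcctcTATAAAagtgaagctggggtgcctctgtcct
Fga: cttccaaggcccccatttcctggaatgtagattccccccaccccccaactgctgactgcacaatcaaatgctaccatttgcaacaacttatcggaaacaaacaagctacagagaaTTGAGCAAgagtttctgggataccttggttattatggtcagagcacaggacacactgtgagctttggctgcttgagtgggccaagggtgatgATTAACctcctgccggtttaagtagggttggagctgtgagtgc
Cyp2a5: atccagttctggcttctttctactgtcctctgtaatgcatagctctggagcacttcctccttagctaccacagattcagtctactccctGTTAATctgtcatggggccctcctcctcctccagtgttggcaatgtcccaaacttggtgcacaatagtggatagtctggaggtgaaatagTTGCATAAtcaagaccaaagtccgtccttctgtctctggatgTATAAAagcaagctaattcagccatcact

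In Pgam2 the capitals are an E-box 125 bases before the start and a MEF2 match 80 bases before it. Myh4 held both as well, the E-box at 67 bases, together with a CArG box at 104 bases and a TATAAA at 31 bases. The CArG match of Myh4 overlaps a C/EBP match, and a TATAAA on the other strand lies inside its MEF2 match. The Fga window held a GTTAAT at 43 bases and a C/EBP match at 135 bases, both on the other strand. Cyp2a5 held a TATAAA at 29 bases, a C/EBP match at 71 bases and a GTTAAT at 161 bases. These matches are descriptions of letters and say nothing about binding.

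Windows of 300 bases, 250 before to 50 after the start, were at hand for 27025 genes. CAGCTG stood in 18.3% of them, the MEF2 site in 3.7%, the CArG box in 1.81%, TATAAA in 15.7%, GTTAAT in 8.24%, CAAAGTCCA in 0.555% and TTGCNNAA in 12.2%. Of the 15 genes with the largest positive fitted FatK5 minus FatK7 difference, 12 had a window, and 7 of these held CAGCTG, 4 the MEF2 site and 2 the CArG box. Of the 15 with the largest negative difference, 13 had a window, and 7 of these held TTGCNNAA, 4 GTTAAT, 1 CAGCTG and 0 the MEF2 site. CAAAGTCCA was in 0 windows of either set. The 23 switched enzyme pairs described below, picked by their calls in these data, were read likewise. CAGCTG was in 10 of the 19 windows of their muscle forms and in 3 of the 21 windows of their liver forms. TTGCNNAA, by contrast, was in 6 windows of the muscle forms and 1 of the liver forms, and GTTAAT in 0 windows of either.

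The contrast was wide. Signals correlated at 0.966 to 0.983 among the FatK5 arrays and at 0.991 to 0.992 among the FatK7 arrays, against 0.632 to 0.646 between the labels (Pearson, log2 scale, across tested probes, given as a description since genes are not independent). Mean signals were 192, 231 and 181 on the FatK5 arrays and 294, 275 and 269 on the FatK7 arrays, with 17941 to 18864 and 17289 to 18201 probes detected. Of 24789 probes tested, 63.9% were called: 8182 (33.0%) were higher and 7659 (30.9%) lower in FatK5 at an adjusted p below 0.05 (limma, Benjamini-Hochberg over all tested probes). By the brightest probe of each gene, 66.3% of 12894 genes were called, 33.7% as higher and 32.6% as lower. With a difference of at least 8-fold added, 499 genes (3.87%) were higher and 672 (5.21%) lower. Every FatK5 array lay above every FatK7 array in 35.5% of genes and below it in 34.5%. Counts of called members below are to be read against these shares. The median difference over all genes was 0.05 log2 units.

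The lists held 134 genes of muscle, 314 of liver, 170 of machinery that both share and 147 that mark other cells or cycling. Of the muscle genes, 117 had a tested probe, and 106 were higher in FatK5, 2 lower and 9 not called, with a median difference of 5.33 log2 units. Of the liver genes, 260 were tested, and 8 were higher, 242 lower and 10 not called, with a median of -4.94. The shared machinery split 80, 42 and 26 of 148 with a median of 0.44, and the other cells 41, 36 and 23 of 100 with a median of 0.17. Of the tested muscle genes, 75 were detected on no array of at least 1 label, and so were 112 of the liver genes, so that their fitted difference depends on the lowest level an array can show. With such genes at their lower bound, explained below, the medians became 5.10 for muscle, -4.88 for liver, 0.44 for shared machinery and 0 for other cells. The members and lists were chosen with earlier results of these data known, so the counts describe the contrast.

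**Figure D1:**
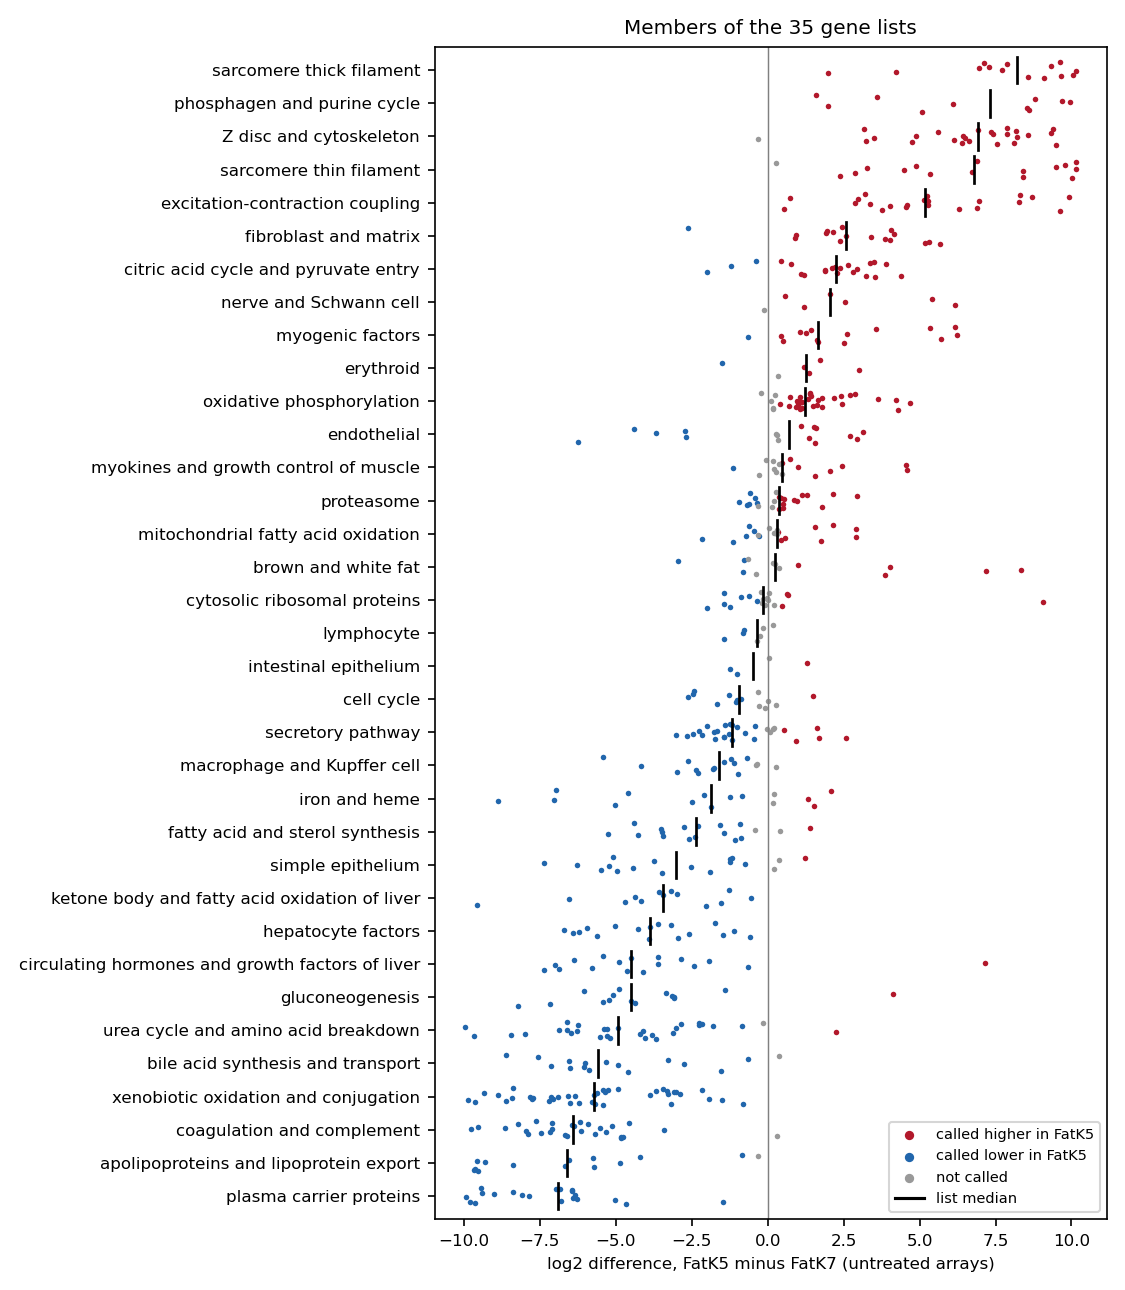
FatK5 minus FatK7 difference (log2) of every tested member of the 35 gene lists, 1 point a gene by its brightest probe, coloured by its call, and a bar at the list's median. The lists of contraction lie to the right, at medians of 5.18 to 8.22 (4.77 to 8.002 with genes at background under 1 label set to their bound), and those of plasma proteins to the left, at -6.39 to -6.90 (-6.21 to -6.75).

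Thick filament genes had the largest positive median of the 35 lists. All 14 tested thick filament genes and 15 of 16 thin filament genes were higher, with medians of 8.22 and 6.81 log2 units. Myh4, the heavy chain of the fastest myosin (2B), had signals of 22149, 23823 and 20420 on the FatK5 arrays, against -5.31, -2.77 and -3.78 on the FatK7 arrays. Myh1, the heavy chain of fast myosin 2X, had 12829, 18597 and 15897 on the FatK5 arrays, against 1.19, -8.31 and -6.99 on the FatK7 arrays. Both were high on every FatK5 array and at background on every FatK7 array. For such genes the difference is a lower bound, the mean of the bright arrays over the lowest signal that counted as detected on the dim ones, or the dim signal itself where that was higher: at least 768-fold for Myh4 and at least 580-fold for Myh1.

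Fast-fibre forms were among the 15 genes with the largest positive fitted difference. Myl1, a fast light chain, had a fitted difference of 10.16 ± 0.28 log2 units (SE, limma over 18 arrays, 3 arrays in each group compared) and Tnnc2, the calcium-binding troponin of fast fibres, of 10.15 ± 0.90, with adjusted p-values of 1.77e-16 and 8.04e-09. As bounds these are at least 864-fold and at least 789-fold. Acta1, skeletal alpha-actin, had 20331, 20859 and 19420 on the FatK5 arrays, against -8.36, -10.1 and -10.9 on the FatK7 arrays. Tnnt3 and Tnni2, the fast troponins T and I, exceeded 18000 on every FatK5 array and stayed below 23 on every FatK7 array. Tpm2, beta-tropomyosin, was at least 898-fold higher. Ttn, the giant spring of the sarcomere, was at least 629-fold higher by its brightest probe.

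Forms of slow fibre and heart were higher too. Myl2, the ventricular and slow regulatory light chain, had 2879, 3797 and 3738 on the FatK5 arrays, against -10.5, -7.17 and -7.1 on the FatK7 arrays. Myl3, the slow light chain, and Tnni1, the slow troponin I, were at background in FatK7 and at least 94.3-fold and at least 6.90-fold higher. Tnnt1 and Tnnc1, the slow troponins T and C, differed by 4.87 and 4.50 log2 units. The probes of Myh7, the slow myosin heavy chain, did not agree: 1 was at least 3.26-fold higher, with 51.8, 101 and 72.8 in FatK5 against 4.4, 1.71 and 2.13 in FatK7. Another probe was lower by 1.80 ± 0.28, with 3.87, 24.3 and 13.1 in FatK5 against 93.3, 111 and 80.5 in FatK7, and the remaining probe was not called. Actc1, cardiac actin, which regenerating skeletal fibres also use, had 23984, 1714 and 7041 on the FatK5 arrays with array 1 far above the other two, against -4.6, 4.51 and -6 on the FatK7 arrays. Tpm1, a tropomyosin of many cell types, was the 1 thin filament gene not called (0.26 ± 0.22, adjusted p = 0.31).

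Of 25 genes of the Z disc and its cytoskeleton, 24 were higher, with a median of 6.92 log2 units. Actn2, the Z-disc actinin that crosslinks actin, differed by 9.51 ± 0.42, Tcap, which ties titin's ends at the Z disc, was at least 548-fold higher, and Myoz1, a calcineurin-binding protein of fast fibres, at least 441-fold higher. Desmin (Des), the muscle intermediate filament, had 3564, 7350 and 3765 in FatK5 against 76.6, 50.1 and 76.8 in FatK7. It was thus detected on all 6 arrays and the groups did not overlap. Dystrophin (Dmd) was the member not called: its probe was at 7.3, 15.6 and 11.5 in FatK5 and 19.9, 19.1 and 11.7 in FatK7, near background throughout (adjusted p = 0.056).

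All 22 tested genes of excitation-contraction coupling were higher, with a median of 5.18. Ryr1, the calcium release channel of skeletal muscle, had 9932, 13300 and 10637 on the FatK5 arrays, against 15.7, 10.5 and 13.5 on the FatK7 arrays. Atp2a1, the calcium pump of fast fibres, differed by 9.64 ± 1.07 and was detected on 1 FatK7 array. Pvalb, parvalbumin, the soluble calcium buffer of fast mouse fibres, was at least 783-fold higher, and Casq1 and Casq2, the fast and slow calcium stores of the reticulum, at least 81.7-fold and at least 19-fold higher. Receptors of the nerve endplate were part of the list: Chrna1 and Chrne, subunits of the adult acetylcholine receptor, were at least 19.3-fold and at least 9.17-fold higher, and Chrnb1, another subunit, differed by 5.29 log2 units. Cacng6 and Musk, both near background, were at least 1.27-fold and at least 1.31-fold higher.

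The phosphagen and purine cycle genes were all higher, 10 of 10, with a median of 7.31. Ckm, cytosolic creatine kinase of muscle, had 20754, 23388 and 19405 on the FatK5 arrays, against -5.63, 4.32 and -6.08 on the FatK7 arrays. Ckmt2, its partner in the mitochondria of striated muscle, was at least 603-fold higher. Myoglobin (Mb), the oxygen store, had 18293, 6851 and 20288 in FatK5 against 15.6, 19.5 and 10.7 in FatK7, with FatK5 array 2 well below the other two. Slc6a8, the creatine transporter, had a smaller difference of 3.60 ± 0.22.

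Transcription factors and cofactors of muscle were also higher in FatK5 in most cases. Of 15 myogenic factors, 14 were higher and 1, Mef2d, lower, with a median of 1.66 log2 units. Myf6, the myogenic factor that stays on in adult fibres, had 1679, 1426 and 1406 on the FatK5 arrays, against -1.12, 12.9 and -4.88 on the FatK7 arrays. Myod1 and Myog, which set up the lineage and its differentiation, were at 102, 100 and 170 and at 46.7, 45.7 and 30.4 on the FatK5 arrays, and were detected on none of the FatK7 arrays. Myf5, the factor of early precursors, was at 22.2, 23.3 and 19.5 in FatK5 against 2.94, 11.7 and 10.1 in FatK7, a lower bound of 1.28-fold. Vgll2 and Tbx15, factors linked to fibre identity, were at least 58.7-fold and at least 28.8-fold higher. The Mef2d probe was below 0 on all 3 FatK5 arrays and at 15.7, 6.46 and 15.9 on the FatK7 arrays, a difference near background of at least 1.14-fold.

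**Figure D2:**
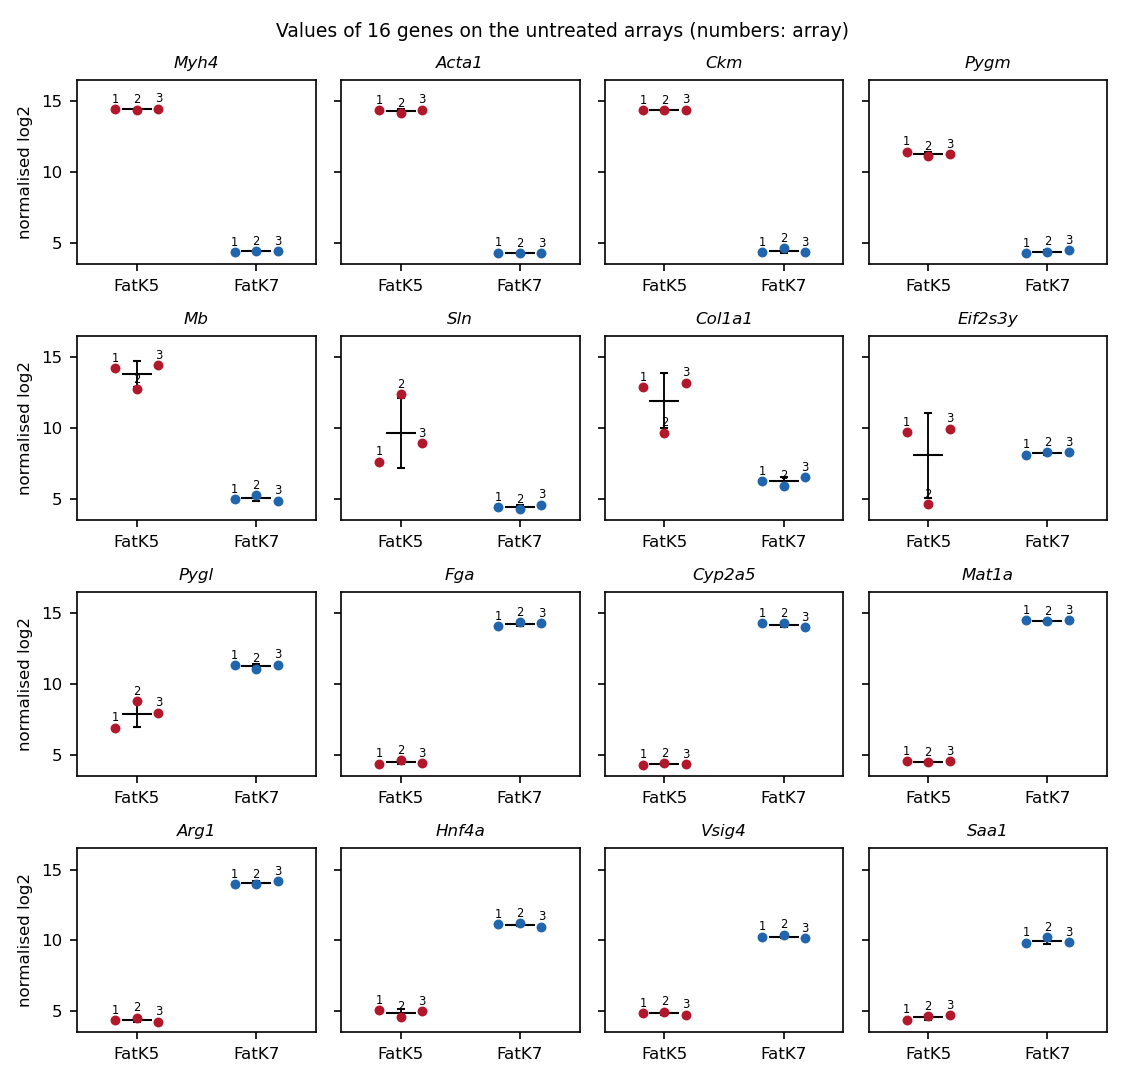
Normalised log2 signal of 16 genes on each untreated array, with FatK5 left of FatK7 in each panel, numbered points for arrays and a bar with whiskers for the mean and SD of 3 arrays. Myh4, Acta1 and Ckm stand high on the 3 FatK5 arrays and at the floor on the 3 FatK7 arrays, Fga, Cyp2a5 and Mat1a the other way round, and Sln, Col1a1 and Eif2s3y set FatK5 array 2 apart from arrays 1 and 3.

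Genes of the hepatocyte's secretions were lower in FatK5. All 20 tested plasma carrier proteins were lower, with a median of -6.90 log2 units, and 8 of them were detected on no FatK5 array. Transthyretin (Ttr), the carrier of thyroxine and retinol, had signals of 5.33, 4.93 and 13 on the FatK5 arrays, against 19908, 17921 and 15981 on the FatK7 arrays. Hemopexin (Hpx), which binds free heme, had 2.09, 21.6 and 3.15 in FatK5 against 25524, 26670 and 20757 in FatK7. The difference of Ttr was at least 631-fold, and that of Hpx was -9.93 ± 0.15 (adjusted p = 6.12e-20).

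Albumin (Alb) is the exception in size among these proteins. Its probe read -1.7, 6.17 and 0.229 on the FatK5 arrays and 43.9, 52.5 and 46.7 on the FatK7 arrays. Detected on all FatK7 arrays and on no FatK5 array, it differed by at least 2.35-fold, the smallest difference of the list. Trf, transferrin, was not at background in FatK5: it had 194, 168 and 168 there against 25363, 27699 and 21944 in FatK7. Haptoglobin (Hp) and ceruloplasmin (Cp) were likewise detected on all 6 arrays and lower by 6.41 and 5.02 log2 units. Serpina1c, an alpha-1-antitrypsin gene, was lower by at least 909-fold, although its near-identical neighbours can share a probe, which leaves the gene within that family uncertain.

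Lipoprotein genes followed the same pattern, 13 of 14 lower with a median of -6.60. Apoa1, the main protein of HDL, had 5.35, 14 and 5.19 on the FatK5 arrays, against 20365, 19039 and 16495 on the FatK7 arrays. Apob, the scaffold of VLDL, and Mttp, which loads it with lipid, were at least 82.9-fold and at least 14.3-fold lower. Apoe, which macrophages and other cells also make, had 167, 204 and 159 in FatK5 against 22323, 19579 and 16235 in FatK7. Pltp, a phospholipid transfer protein, was near background on all 6 arrays and not called.

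Of 28 tested coagulation and complement genes, 27 were lower, with a median of -6.39, and 18 of them were detected on none of the FatK5 arrays. Prothrombin (F2) had 2.38, -13.2 and -11.7 in FatK5 against 6803, 7242 and 6640 in FatK7. Fga and Fgg, 2 of the fibrinogen chains, were at least 737-fold and at least 292-fold lower, while Fgb was not detected on any of the 6 arrays and was not tested. C8b, a chain of the membrane attack complex, was not called and overlapped, at 1421, 981 and 1526 in FatK5 and 1826, 1908 and 1405 in FatK7. Its partners C8a and C8g were lower, by at least 21.9-fold and by 6.60 ± 0.19 log2 units.

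Hepatic metabolism was lower in each list. Of 31 genes of the urea cycle and amino acid breakdown, 29 were lower, with a median of -4.91. Cps1, which fixes ammonia as the first step of the urea cycle, had 6.47, 23.1 and 15 on the FatK5 arrays, against 10249, 9313 and 9991 on the FatK7 arrays. Arg1, which releases urea, was at least 635-fold lower, and Mat1a, the liver enzyme that makes S-adenosylmethionine, at least 868-fold lower. The 1 member higher in FatK5 was Glul, glutamine synthetase, which muscle and perivenous hepatocytes use to bind ammonia: 141, 477 and 370 against 54, 54 and 74.4 in FatK7 (2.25 ± 0.35). Tat, tyrosine aminotransferase, stayed near 10 on all 6 arrays and was not called.

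All 41 genes of xenobiotic metabolism were lower, with a median of -5.73. Cyp2a5 had -8.9, -2.53 and -6.71 on the FatK5 arrays and 20867, 20010 and 15957 on the FatK7 arrays, although its close copy Cyp2a4 may share the signal. Cyp2e1, the ethanol-inducible P450, stayed detected in FatK5 at 206, 40.9 and 171, against 19534, 19409 and 15345. Smaller differences were those of glutathione transferases that many tissues express, Gstm1 and Gstp1, at -3.02 and -3.08, and Aldh1a1 at -0.80 (adjusted p = 0.045). Cyp2b10, inducible by phenobarbital, was low in FatK7 too, at 99.1, 35.8 and 80.4.

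Bile acid genes were lower in 15 of 16 cases, with a median of -5.60. Cyp7a1, the rate-limiting enzyme of bile acid synthesis, had 14.1, 2.13 and 3.93 on the FatK5 arrays, against 3088, 2362 and 1468 on the FatK7 arrays. Cyp8b1, which makes the cholic acid branch, was at least 85.7-fold lower, and Abcb11, the bile salt export pump, at least 22.7-fold lower. Slc10a1, the uptake carrier NTCP, was only at 17.8, 25.2 and 26.6 in FatK7, and Slco1a1 was not called.

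Glucose output was lower in 14 of 15 genes, with a median of -4.51. G6pc, which releases free glucose, had -5.93, 25.7 and -1.14 in FatK5 against 6864, 3771 and 4993 in FatK7. Pck1, the entry enzyme of gluconeogenesis, was lower by 3.09 ± 0.40. The exception was Ppp1r3c, a glycogen-targeting subunit of protein phosphatase 1, with 10911, 18503 and 13277 in FatK5 against 1438, 908 and 1132 in FatK7. Lipid synthesis was lower in 15 of 18 genes (median -2.35), among them Fads1, a fatty acid desaturase (-4.26 ± 0.21), with malic enzyme Me1 higher by 1.40 ± 0.22. All 13 genes of hepatic ketone body and fatty acid oxidation were lower (median -3.43), among them Bdh1, the ketone body dehydrogenase, by at least 83.2-fold.

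Hepatocyte transcription factors were lower in 17 of 17 cases, with a median of -3.86. Hnf4a, the nuclear receptor at the top of the hepatocyte hierarchy, had 17.3, 7.69 and 15.6 on the FatK5 arrays, against 3226, 3157 and 2709 on the FatK7 arrays. Nr1h4, the bile acid receptor FXR, was at least 89.5-fold lower, and Foxa3 at least 65.9-fold lower. Cebpb, which muscle and macrophages also express, had the smallest difference, -0.59 ± 0.14. Both Hnf4a and Cebpb differed beyond the spread between arrays, but only Hnf4a came near background in FatK5.

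Hormones and iron proteins made by the liver divided less evenly. Of 17 circulating factors, 16 were lower, among them Igf1 (223, 70.4 and 98.4 in FatK5 against 2669, 2535 and 2123 in FatK7) and Igfbp2 (at least 77.7-fold). Igf2, the fetal growth factor that muscle also makes, went the other way, with 5123, 6719 and 5264 in FatK5 against 41.2, 18.5 and 40.4 in FatK7 (7.16 ± 0.19). Hamp, hepcidin, the iron hormone, had 9.71, 6.25 and -3.22 in FatK5 against 13717, 15644 and 10353 in FatK7. Among 15 iron genes 10 were lower, while Tfrc, Hjv and Bmp6 were higher and the ferritin heavy chain Fth1 was not called, at 22313, 28093 and 22512 against 21323, 22985 and 17489.

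Keratins and tight junction genes of simple epithelium were lower in 15 of 18 cases, with a median of -3.01. Krt8 and Krt18, the keratin pair of hepatocytes and gut alike, had 13.2, 9.48 and 2.42 and 1.79, 2.1 and -1.31 on the FatK5 arrays. On the FatK7 arrays they had 6308, 4928 and 5987 and 2296, 2369 and 2368. Cdh1, E-cadherin, had 0.236, 27.4 and 0.000665 in FatK5 against 394, 264 and 417 in FatK7. The 1 member higher in FatK5 was Tjp1 (ZO-1), by 1.23 ± 0.17.

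Isozyme switches were read as pairs of genes for 1 function, with the form known from muscle named first, lactate dehydrogenase apart. Of 44 pairs, 29 had both forms tested. In 23 of the 29 the muscle form was higher and the liver or general form lower in FatK5. In 4 pairs both forms were higher, in 2 only 1 form was called, and 15 pairs were incomplete. Each form was compared with itself across arrays, since the levels of different probes are not on 1 scale.

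**Figure D3:**
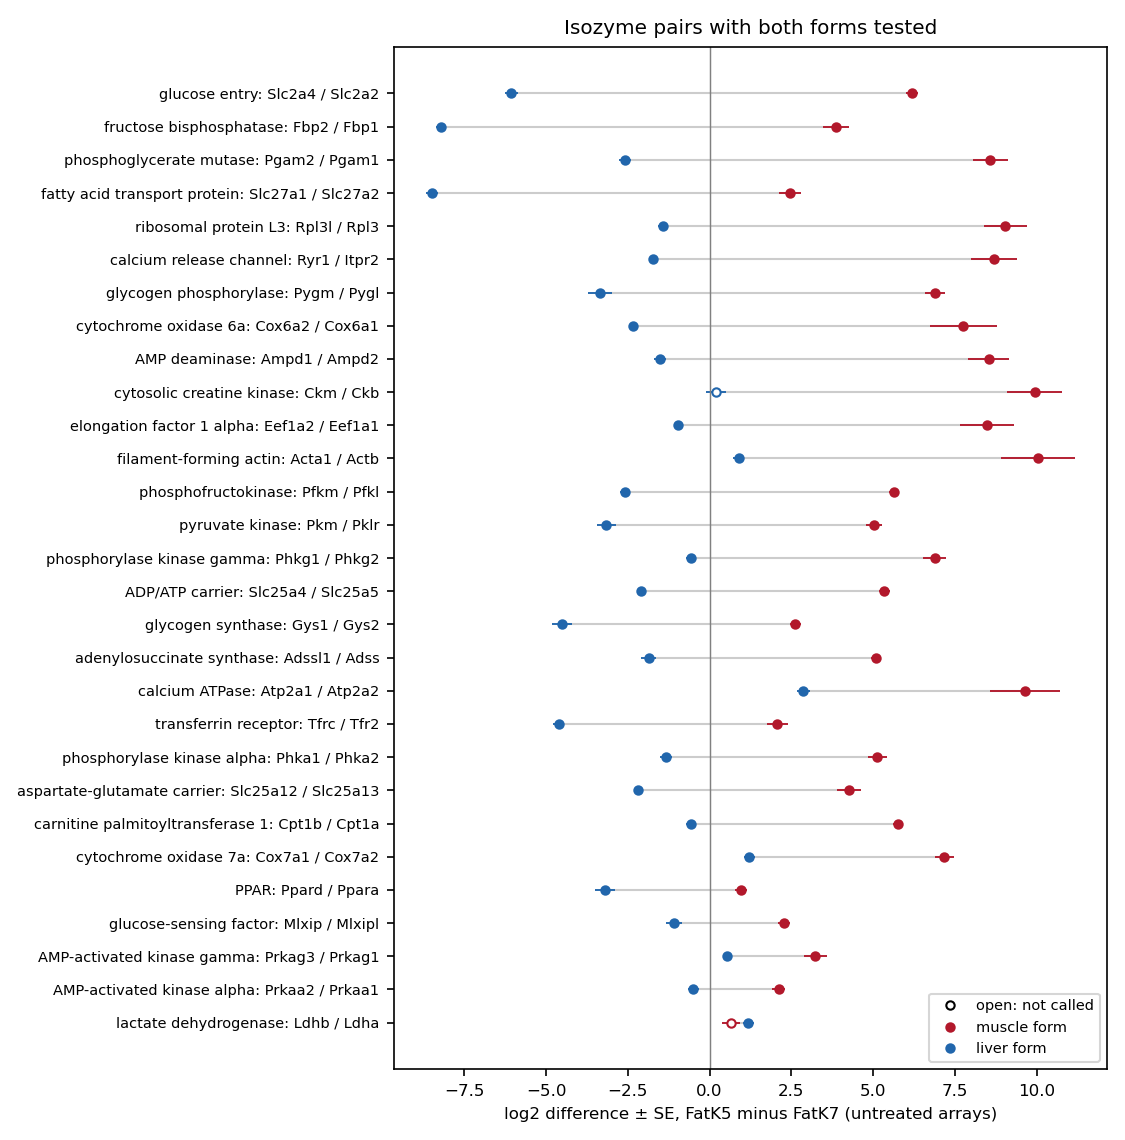
FatK5 minus FatK7 difference (log2) with its SE for both forms of the 29 isozyme pairs tested, 1 line a pair, with open points where a form was not called. The 23 switched pairs have the muscle form right of 0 and the liver form left of it. For lactate dehydrogenase, Ldhb is drawn as the muscle form, although Ldha is the subunit known from skeletal muscle.

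Glucose entry switched as a whole. Slc2a4 (GLUT4), the insulin-dependent transporter of muscle and fat, had 1229, 1738 and 1572 on the FatK5 arrays, against 5.25, 2.73 and 4.75 on the FatK7 arrays. Slc2a2 (GLUT2), the high-capacity transporter of hepatocytes, had 7.9, 0.273 and 9.59 in FatK5 against 2114, 2437 and 2170 in FatK7. The differences were at least 61.7-fold up and at least 60.9-fold down.

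Glycolysis switched at 3 of its steps. For phosphofructokinase, Pfkm had 11630, 10499 and 12095 in FatK5 against 289, 301 and 304 in FatK7, and Pfkl 79.5, 99.9 and 70.1 against 871, 716 and 846. Phosphoglycerate mutase showed the widest swing of the pathway: Pgam2 had 9744, 5864 and 8455 in FatK5 against 6.69, -5.67 and 5.21 in FatK7, and Pgam1 59.2, 58.8 and 39.4 against 596, 452 and 530. Pyruvate kinase Pkm was higher by 5.02 ± 0.24 and Pklr, the liver form, at least 7.08-fold lower. Aldoa and Eno3, the muscle aldolase and enolase, were higher by 4.26 ± 0.14 and 8.12 ± 0.54, but Eno1, the general enolase, was not tested. The lactate dehydrogenase pair was listed with Ldhb as the muscle form, although Ldha is the subunit known from skeletal muscle. In neither order did it switch, since Ldha was higher (1.18 ± 0.16) and Ldhb was not called. Ldhb was at 25.5, 40.5 and 30.5 against 16.6, 4.46 and 18.7 (adjusted p = 0.051).

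The reverse path switched at fructose bisphosphatase. Fbp2, the muscle form, had 513, 1164 and 480 in FatK5 against 46.2, 24.7 and 46.6 in FatK7, and Fbp1, the gluconeogenic form, -18.8, -9.24 and -14.8 against 7895, 7443 and 7512. Glycogen enzymes switched in all 4 pairs with both forms tested. Glycogen phosphorylase Pygm had 2248, 2105 and 1830 in FatK5 against -10.3, -4.18 and -0.441 in FatK7. Its liver counterpart Pygl had 94.5, 435 and 187 against 3742, 2926 and 3607. Glycogen synthase Gys1 was higher by 2.62 ± 0.17 and Gys2 at least 18.6-fold lower. The alpha and gamma subunits of phosphorylase kinase followed, with Phka1 at least 31.8-fold and Phkg1 at least 88.7-fold higher, and Phka2 and Phkg2 lower by 1.35 ± 0.18 and 0.58 ± 0.15.

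Fat uptake and burning switched at the gates. Cpt1b, the muscle carnitine palmitoyltransferase that admits fatty acids to mitochondria, had 2586, 3037 and 2316 in FatK5 against 51.1, 41.6 and 36.3 in FatK7. The liver form Cpt1a was near background throughout, at 11.1, 4.54 and -0.441 against 14.8, 22.8 and 17.1, so its call rests on a difference near background of at least 1.34-fold. Slc27a1, the fatty acid transport protein of muscle and fat, was higher by 2.45 ± 0.34 and Slc27a2 at least 295-fold lower. Fabp3, the heart and muscle fatty acid binding protein, was higher by 8.31 ± 0.19, whereas Fabp1 did not pass the filter. On the FatK7 arrays Fabp3 had 19.7, -1.49 and 1.1 and was detected on 1 of them. Lpl, the lipase of muscle capillaries, and Vldlr were higher by 2.97 and 5.41. Oxct1, which lets a tissue burn ketone bodies and which hepatocytes lack, had 5402, 1678 and 4989 in FatK5 against 267, 181 and 244 in FatK7.

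Mitochondrial carriers and subunit 6a of cytochrome oxidase switched as well. Slc25a4, the ADP/ATP carrier of muscle, had 834, 738 and 641 in FatK5 against -2.03, 0.461 and -7.42 in FatK7, and Slc25a5 2415, 2276 and 2408 against 14761, 13702 and 13154. The aspartate-glutamate carrier had Slc25a12 higher by 4.27 ± 0.37 and Slc25a13, which the urea cycle needs, at least 3.63-fold lower. Cox6a2, the muscle subunit of cytochrome oxidase, had 16280, 25040 and 19333 against 91, 41.4 and 155, and the general form Cox6a1 1194, 1555 and 1321 against 10914, 9836 and 10269. For subunit 7a both forms were higher, Cox7a1 by 7.18 and Cox7a2 by 1.22. For subunit 8, Cox8b was higher by 8.35 and Cox8a was not tested. Cox8b had 114, -3.74 and -4.91 on the FatK7 arrays and was detected on 1 of them.

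Purine handling, translation and signalling gave the remaining switches. Ampd1, muscle AMP deaminase, was at least 294-fold higher and Ampd2 lower by 1.51 ± 0.19. Adssl1, muscle adenylosuccinate synthase, was higher by 5.09 ± 0.15 and Adss lower by 1.86 ± 0.23. Eef1a2, the elongation factor form of muscle and neurons, had 10113, 11000 and 8510 in FatK5 against 29.1, 6.82 and 10.6 in FatK7. The general form Eef1a1 had 9448, 13426 and 9040 against 23526, 23112 and 19445, although the probes of Eef1a1 did not agree: another called probe was higher, with 135, 322 and 145 in FatK5 against -4.46, 3.27 and 2.18 in FatK7. The ribosome was included: Rpl3l, the striated muscle version of ribosomal protein L3, was at least 461-fold higher, and Rpl3 had 2376, 4792 and 2298 against 12273, 11818 and 11004.

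Calcium release switched between Ryr1 and Itpr2, the inositol trisphosphate receptor of hepatocytes (-1.72 ± 0.13). The transferrin receptors exchanged, with Tfrc, the general uptake receptor, at 3025, 1855 and 1667 in FatK5 against 777, 720 and 819 in FatK7. Tfr2, the hepatic iron sensor, had 16.8, 29.1 and 13.6 against 1138, 1238 and 944. Among fuel sensors, Mlxip and Ppard were higher by 2.28 and 0.95, while Mlxipl (ChREBP) and Ppara were lower by 1.09 and 3.19. The catalytic AMP kinase subunits gave Prkaa2 higher by 2.11 ± 0.21 and Prkaa1 lower by 0.51 ± 0.17 near background. The call of Prkaa1 was lost without FatK5 array 3 or FatK7 array 3. The call of Ppard was lost when arrays were scaled by their medians, and those of Prkaa2, Itpr2 and Mlxipl when the median over a gene's probes replaced the brightest probe.

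Creatine kinase did not switch, with Ckm higher and Ckb not called, at 761, 497 and 606 against 909, 697 and 820 (adjusted p = 0.60). The calcium ATPases Atp2a1 and Atp2a2 were both higher, and so were the actins Acta1 and Actb and the AMP kinase gamma subunits Prkag3 and Prkag1. Of these, Prkag1 turned to -0.35 and the calls of Actb, Cox7a2 and Ldha were lost under median scaling.

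Several of these genes had probes that disagreed. Of 233 listed genes with 2 or more called probes, 23 had called probes in both directions, and 14 kept both under median scaling. For Atp2a2, the slow-fibre and general calcium pump, 2 probes were higher, by 2.86 and 2.91, while the other had 132, 141 and 127 in FatK5 against 813, 892 and 768 in FatK7. Tpm3, slow tropomyosin, had 5 probes higher, by 4.73 to 6.89, and 1 lower by 0.52. Actb, beta-actin, had 3 probes higher and 2 lower. Of 11 tested probes of Ttn, 10 were higher and 1, near background, was lower. Over all genes with 2 or more called probes, 525 of 2983 had both directions. Which transcripts each probe reads was not tested.

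**Figure D4:**
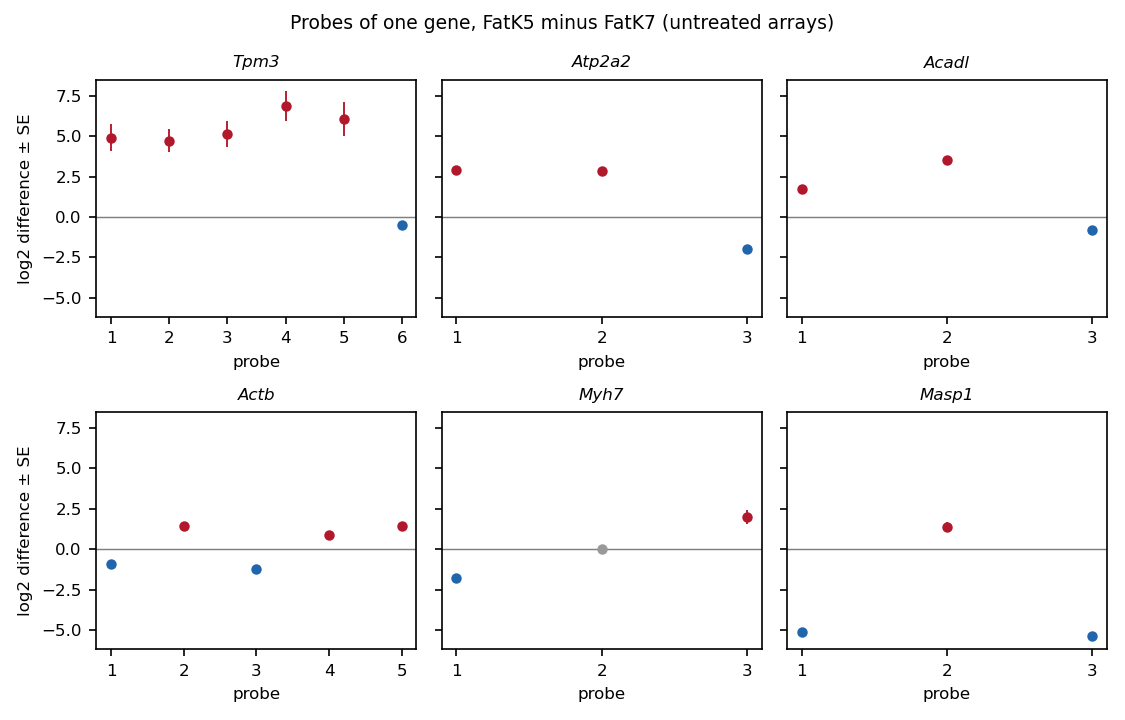
FatK5 minus FatK7 difference (log2) with its SE for each tested probe of 6 genes whose called probes pointed both ways, 1 point a probe, gray where not called. Atp2a2, Tpm3 and Myh7 have called probes on both sides of 0.

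For machinery that both tissues need, counts depended in part on the scaling of the arrays. Of 36 tested oxidative phosphorylation genes, 31 were higher and 0 lower, with a median of 1.24 log2 units. Under median scaling 17 were higher and 4 lower, with a median of 0.21, while the median over all genes moved to -0.33 and the share of genes called became 21.9% higher and 46.2% lower, against which counts under median scaling are to be read. Cox7b, a cytochrome oxidase subunit, had 1464, 1289 and 1411 in FatK5 against 51.3, 49.2 and 51.7 in FatK7 (4.67 ± 0.15), and Atp5a1, the alpha subunit of ATP synthase, was higher by 4.29 ± 0.15. Atp5b, its beta subunit, was not called, at 23840, 27050 and 23399 against 22625, 21572 and 19127.

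In the citric acid cycle 19 of 22 genes were higher and 3 lower (median 2.25), and 16 and 4 under median scaling (median 1.21). Dld, the dihydrolipoyl dehydrogenase shared by the 2-oxoacid dehydrogenases, had 2114, 1519 and 1746 in FatK5 against 94.9, 93.7 and 91.7 in FatK7. Citrate synthase (Cs) was higher by 3.52 ± 0.13, and Pdk4, the kinase that shuts pyruvate dehydrogenase in fasted muscle, by 3.88 ± 0.56. Idh3b was lower by 2.01 ± 0.13 although Idh3a and Idh3g, which encode the other subunits of the same enzyme, were higher by 2.79 and 1.88. Another called probe of Idh3b pointed the other way.

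Mitochondrial fatty acid oxidation was mixed, with 8 higher, 6 lower and 5 not called of 19, and 5 higher and 13 lower under median scaling. Its median of 0.30 became -0.77. Ribosomal proteins (4 higher and 7 lower of 19) and the proteasome (13 higher and 6 lower of 23) also turned with the scaling, to 1 and 17 and to 3 and 16. With the series' deposited values, fatty acid oxidation had 3 lower, ribosomal proteins 1 higher and the proteasome 7 higher and 1 lower. Secretory pathway genes were lower in 20 of 29 cases, higher in 5, with a median of -1.17, and lower in 24 under median scaling. P4hb, the protein disulfide isomerase of the endoplasmic reticulum, had 1904, 2169 and 1662 in FatK5 against 20154, 17704 and 16619 in FatK7. Of the secretory genes higher in FatK5, Hspa5 (BiP) had 228, 205 and 131 against 15, 29.9 and 14.2.

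Of 16 tested genes of muscle growth control, 8 were higher and 1 lower. Igfbp5, a growth factor binding protein of muscle and bone, was higher by 4.54 ± 0.32 and Fndc5, the irisin precursor, at least 21.2-fold. Foxo1 and Irs2, of insulin signalling, were not called. Of 14 cell cycle genes 8 were lower and 1, Pcna, higher. Mcm5, a helicase subunit of replication, had 50.1, 69.1 and 25.1 in FatK5 against 654, 368 and 413 in FatK7.

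Markers of other cells moved with the contrast, and their part in it was not tested. Of 16 macrophage and Kupffer cell genes, 0 were higher and 13 lower, and their summed signal was 1208 to 2112 on the FatK5 arrays and 9119 to 11180 on the FatK7 arrays. Those named for Kupffer cells, the macrophages of liver, were near background in FatK5. Clec4f had 10.7, 7.64 and 15.8 there against 626, 713 and 539 in FatK7, and Vsig4 12.8, 18.4 and 10.5 against 1776, 1784 and 1515. General macrophage genes were lower too, among them the complement gene C1qb and the cytoskeletal Aif1, by 2.36 and 2.29. C1qa, another complement gene, had 40.5, 32.3 and 28.4 in FatK5 against 558, 471 and 445 in FatK7. Csf1r, Cd163 and Ctss were not called. Of the 16, 11 were detected on every FatK5 array and 16 on every FatK7 array.

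Endothelial genes divided, with 8 of 16 higher and 5 lower, and summed signals of 5806 to 8692 in FatK5 and 8436 to 9497 in FatK7. Pecam1, a general endothelial marker, and Emcn, an endothelial sialomucin, were higher by 3.14 and 2.93. The 5 lower genes, Stab1, Stab2, Clec4g, Fcgr2b and Oit3, are known from liver sinusoids. Lyve1, also a sinusoid gene, was not called (0.26). Clec4g had 34, 12.5 and 18.9 in FatK5 against 4288, 3822 and 3640 in FatK7, and Stab2 was at background in FatK5 on all 3 arrays.

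Fibroblast and matrix genes were higher in 16 of 17 cases, with a median of 2.57 and summed signals of 23852 to 45095 in FatK5 and 9370 to 13541 in FatK7. Col1a1, fibrillar collagen, had 5922, 809 and 7257 in FatK5 against 70.8, 42.9 and 81.5 in FatK7. Tcf21, a factor of stellate and other mesenchymal cells, was the exception, at -4.35, -4.4 and -10.1 against 156, 102 and 118. Of 7 nerve and Schwann cell genes 6 were higher, with sums of 4199 to 8699 in FatK5 and 131 to 166 in FatK7. Mbp, myelin basic protein, whose call was lost by the median over its probes, had 867, 2831 and 1222 in FatK5 against 8.59, 5.09 and -5.41 in FatK7.

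Fat, blood and gut genes were fewer. Of 13 genes of brown and white fat 5 were higher and 3 lower, and of the 5, Cox8b and Cox7a1 are muscle genes as well. Ucp1, which defines brown fat, was at background on all FatK5 arrays and had 50.1, 2.26 and -1.48 on the FatK7 arrays. Cidea, also of brown fat, had 5.93, 10 and 9.54 in FatK5 against 50.3, 8.07 and -1.6 in FatK7, so FatK7 array 1 stood above the other FatK7 arrays for both. Adipoq, adiponectin, had 552, 360 and 459 in FatK5 against 80.5, 5.12 and 1.85 in FatK7. Of 6 erythroid genes 4 were higher, among them Hba-a1, whose near-identical copy may share the probe, at 16320, 24479 and 19076 in FatK5 against 10919, 10815 and 9320 in FatK7. Of 7 lymphocyte genes 0 were higher and 3 lower, all with signals below 56 on every array. The 4 tested intestinal genes gave 1 higher and 2 lower.

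Arrays of 1 label were not alike in all respects. Among 8734 genes detected on all FatK5 arrays, 9.18% ranged more than 2-fold, with a median SD of 0.24 log2 units, against 0.859% of 8965 genes and 0.13 in FatK7. FatK5 array 2 stood apart. Sarcolipin (Sln), an inhibitor of the calcium pump, had 159, 5263 and 366 on FatK5 arrays 1, 2 and 3, and Csrp3, a stretch-responsive Z-disc protein, had 2358, 13254 and 3572. Ankrd2, another stretch-responsive gene, had 695, 5169 and 898, while Mb, Oxct1 and Col1a1 were lowest on array 2.

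Without FatK5 array 2, 15250 probes were called, against 15841 with it, and the switched pairs stayed at 23. Fitted differences are given here, and those of Actc1, Sln, Ankrd2, Hbb-b2, S100b and Cdc20 depend on the lowest level of an array, since 1 label did not detect them. The muscle genes called higher were then 105 and the liver genes called lower 242. Col1a1 became 6.82 in place of 5.69, Mb 9.31 in place of 8.79 and Slc27a1 1.87 in place of 2.45. Actc1 became 9.43 in place of 8.41, Oxct1 5.02 in place of 4.37 and Pdk4 4.54 in place of 3.88. Col3a1 and Col1a2, of the fibrillar collagens, became 6.30 and 6.20 in place of 5.32 and 5.18. The genes highest on array 2 became smaller in difference, Sln 3.86 in place of 5.23 and Ankrd2 5.59 in place of 6.39, and the call of Csrp3 (3.22, adjusted p = 0.026) was lost at 2.62 (adjusted p = 0.099). Among genes of red cells, Hbb-b2 became 2.20 in place of 3.01, the call of Slc4a1 (1.71) was lost at 0.88, and Alas2, not called with all arrays (0.33), became -0.56. Of the sex-linked genes, Xist became 0.10 in place of 1.83, Eif2s3y 1.60 in place of -0.14 and Kdm5d, then called, 1.45 in place of 0.72.

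Other single arrays weighed on fewer named genes. Without FatK5 array 1, Actc1 became 7.56. Without FatK5 array 3, Col1a1 and Col1a2 became 5.05 and 4.52. Without FatK7 array 1, Cox8b, a muscle and brown fat subunit of cytochrome oxidase, became 9.13 in place of 8.35. That value depends on the lowest level of an array, as Cox8b had -3.74 and -4.91 on FatK7 arrays 2 and 3. The call of Cdc20, a mitotic activator, was lost without FatK7 array 1, at -1.10 in place of -1.67. The call of Lep, leptin (1.01), was lost without FatK5 array 1 or 3, and that of S100b, a glial calcium-binding protein (0.57), without FatK5 array 2 or 3 or FatK7 array 3.

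The shFoxd3 arrays of the same labels are different arrays in the same fit, with 65.3% of genes called. Of the 8548 genes called between the untreated arrays, 7403 (86.6%) were called in the same direction between the shFoxd3 arrays and 10 in the opposite one. The fitted difference of Hpx was -9.93 log2 units between untreated arrays and -9.89 between shFoxd3 arrays. A test of the difference of the 2 contrasts called 16 probes (0.0645%) and 11 genes (0.0853%) at an adjusted p below 0.05 in limma, against 2416 probes at an unadjusted p below 0.05.

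**Figure D5:**
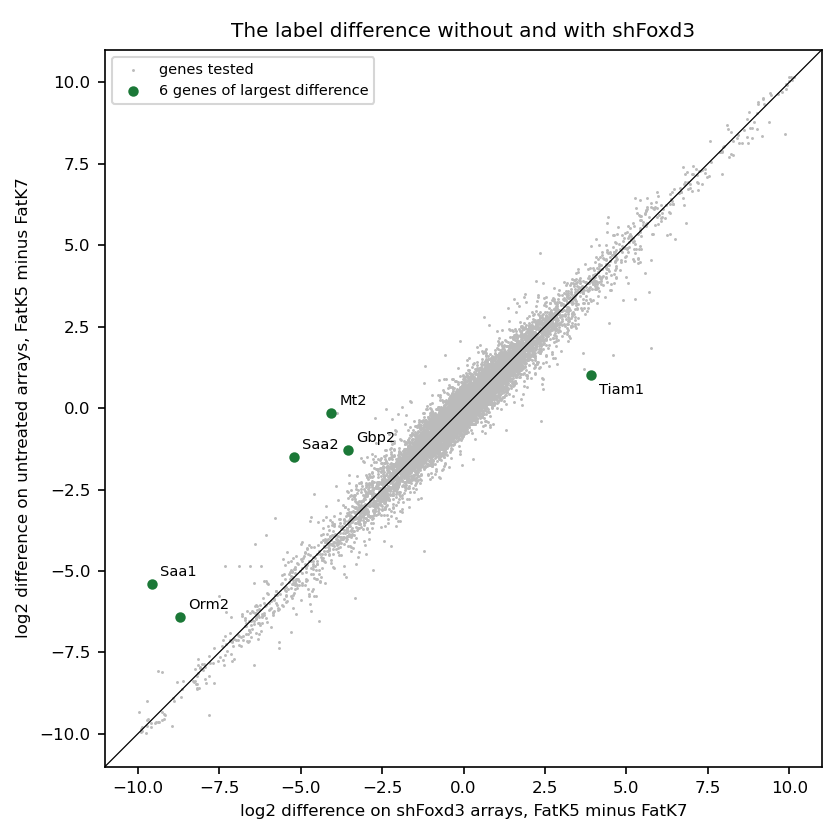
FatK5 minus FatK7 difference (log2) between untreated arrays, on the vertical axis, and between shFoxd3 arrays, on the horizontal axis, 1 point a gene, with the line of equality. Most genes far from 0 lie along that line, and the 6 named ones, Saa1 among them, lie off it.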

How the data were processed

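Illumina bead arrays of 18 samples were read from the non-normalized table, whose columns hold, per the file headers, a mean signal intensity and a detection p-value for each probe. The signals were background-corrected by the authors, as values below 0 show (23.2% to 30.9% of an array's probes), and no normalization of that deposited intensity is stated in the sources used here. The series' deposited values of the same arrays served as an alternative. No chip, scan or extraction batch is given in the sources used here.

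Of 45281 probes, 43 were left out before normalization for signals printed in more than 7 significant digits. The rest were normalized with limma 3.58.1 in R 4.3.3 (neqc: background from the detection p-value, an offset of 16, quantile normalization, log2). A probe was kept where 3 or more of the 18 arrays detected it (p below 0.05), which left 24789. All 18 arrays were fitted with 1 mean per group (lmFit, eBayes with trend), which share 1 estimate of the spread. Tests are two-sided, with Benjamini-Hochberg adjustment over all tested probes and a threshold of 0.05.

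A gene is given by its brightest tested probe over 18 arrays. Names came from the platform annotation: 34885 probes had 1 symbol, 18 several and 10378 none, and 34807 matched RefSeq's table of GRCm38.p6. Differences are FatK5 minus FatK7. A part of the genotype and 1 gene are not reported here. The genes named by rule were the 15 highest and 15 lowest called genes whose groups do not overlap and which all 3 arrays of the higher group detected, up to 6 members of the largest difference in each list, members called against the side of their list, the 6 largest calls of the interaction, the isozyme pairs and identity markers. Further list members were named for their roles after their values were seen. The members and lists were chosen with earlier results of these data known. Versions of python (3.11.15), pandas (2.3.3), numpy (2.4.6) and matplotlib (3.10.9) are those of the analysis.

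Same-numbered untreated FatK5 and FatK7 arrays did not deviate together from their group means (correlations of 0.027, -0.014 and 0.003). No pairing by number was thus seen between them, and a shared batch was not tested. Same-numbered untreated FatK5 and FatK1 arrays, a comparison not made here, did deviate together (0.234, 0.293 and 0.136). The main fit treats these arrays as independent. Tested on simulated data of 24789 probes, the fit recovered 76% of 100 probes changed by 1 log2 unit. It recovered 98% of 100 probes changed by 2, and the whole run gave 7 false calls. The simulation had independent normal noise, no detection floor and no other changed probes. Its shares thus do not carry over to the arrays compared. On the arrays compared, 63.9% of probes were called, and the number of false calls among them was not tested. The number of arrays limits the precision.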

Additional observations from a re-analysis of the deposited data

Results flagged for a closer look

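The FatK5 minus FatK7 difference itself differed between the untreated and the shFoxd3 arrays, by the interaction term in limma, for 11 genes. Untreated FatK5 arrays 1 and 3 differed from the FatK5 shFoxd3 arrays in Xist and Eif2s3y, as given above. In the FatK5 part of this term, treatment and animal thus cannot be told apart. The 6 of largest difference are described, each given as the untreated minus the shFoxd3 difference. For Saa1, an acute-phase protein of liver, it was 4.16 log2 units (adjusted p = 1.73e-05). Saa1 had -3.49, 8.03 and 9.12 in FatK5 against 1283, 1587 and 1264 in FatK7 on the untreated arrays, and 0.77, 10 and 0.665 against 11786, 19107 and 20316 on the shFoxd3 arrays. Saa2, its close copy, gave 3.70 (adjusted p = 0.000194), and Orm2, orosomucoid, another acute-phase protein, 2.27 (adjusted p = 0.0137). Mt2, a metallothionein, gave 3.90 (adjusted p = 0.0367), with 24.6, 208 and 25.7 in FatK5 against 41.4, 87.6 and 93.5 in FatK7 on the untreated arrays. On the shFoxd3 arrays Mt2 had 4.88, 16.2 and 19.8 in FatK5 against 581, 377 and 710 in FatK7. Gbp2, an interferon-induced GTPase, gave 2.25 (adjusted p = 0.0137). Tiam1, a Rac exchange factor, gave -2.90 (adjusted p = 0.000194), with 84.2, 75.4 and 54.6 in FatK5 against 29.9, 29.1 and 29 in FatK7 untreated, and 380, 604 and 757 against 32.1, 19.1 and 14.6 with shFoxd3.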

How the results depend on the processing

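Among counts of list members called in 1 direction, recomputed under each alternative, 1150 stayed within 1.5 times and 40 moved by more, 12 of them under median scaling, 11 with a 2-fold minimum and 4 with the series' deposited values. Of 276 named genes, 241 kept their side of the threshold, and their direction where called, under each of the 17 alternatives that tested them. Some named genes were not tested under the stricter detection filter or with the 6 arrays alone. With a 2-fold minimum, the probes called became 8731, of which 4455 were higher and 4276 lower. The number of probes called for the difference between the untreated and shFoxd3 contrasts, 16, became 39 with an offset of 50 and 8 with the series' deposited values. Adding the array number as a replicate block gave 15961 probes untreated, 15601 with shFoxd3 and 24 for that difference, and no count moved by over 1.5 times. Leaving out each FatK5 or FatK7 array in turn gave 14605 to 15250 probes called, 7490 to 7845 of them higher and 7061 to 7405 lower, 22 to 23 switched pairs, 102 to 107 muscle genes higher and 240 to 242 liver genes lower. Switched pairs numbered 18 with a 2-fold minimum, 20 by the median over a gene's probes and 22 by the series' deposited values.

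Scaling by medians moved the median of all genes to -0.33 and the split of probe calls to 5565 higher and 10441 lower (34.8% higher, against 51.7%). Under it Prkag1 became -0.347, Psmd1 -0.00355 and Psmb7 -0.157, and the calls of Ldha, Cox7a2, Actb, Ppard, Psmd11 and Lep were lost. Alas2, 0.33 with all arrays, ranged between -0.556 (without FatK5 array 2) and 0.802 as single arrays were left out. By the median over a gene's probes the calls of Prkaa2, Itpr2, Mlxipl, Smyd1, Elovl6, Hjv, Lgals4, Mbp and Tyms were lost. The cause of these changes was not tested. The SE of muscle genes was wider in the 18 arrays than in the 6 untreated FatK5 and FatK7 arrays alone (Acta1 1.13 and 0.12). The fit of 18 arrays includes the untreated FatK1 arrays, on which Acta1 ranged from 11.8 to 7828. The SEs and p-values printed for muscle genes thus do not measure the spread within FatK5 and FatK7 alone. Signals near background set no level. Each group is labelled as 1 mouse, although the FatK5 arrays differed in sex-linked genes, and by the labels mouse and tissue cannot be told apart.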

Other observations

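Beyond the lists, further genes of striated muscle were among those furthest apart, named here after their values were seen. Cmya5, a muscle scaffold protein, averaged 9349 ± 2879 in FatK5 and 1.08 ± 4.76 in FatK7 (SD of the signal, n = 3 arrays each), at least 368-fold higher. Rbfox1, a splicing factor of muscle and neurons, averaged 4704 ± 575 in FatK5 and -2.28 ± 6 in FatK7. Sypl2 and Tmem38a, of the junctions of the sarcoplasmic reticulum, were at least 236-fold and at least 152-fold higher. Trim72, which patches torn muscle membranes, and Klhl40, a thin filament chaperone, were at least 79.8-fold and at least 85.2-fold higher, and Synm, an intermediate filament protein, differed by 6.43 log2 units.

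On the liver side, Apom, the HDL protein that carries sphingosine phosphate, averaged -5.89 ± 10.4 in FatK5 and 12698 ± 942 in FatK7, and Asgr1, the hepatocyte receptor that clears desialylated glycoproteins, -0.679 ± 3.31 and 9925 ± 359. Uox, urate oxidase, and Gulo, which makes vitamin C in mice, were at least 236-fold and at least 126-fold lower. Crp, C-reactive protein, and Fgl1, a secreted liver protein, were at least 225-fold and at least 255-fold lower, and Aqp9, the glycerol channel of hepatocytes, at least 174-fold.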
